A study of Saccharomyces cerevisiae with 48 samples.

Results

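The step from the ribosome biogenesis phase to the gluconeogenic phase of the yeast respiratory cycle was followed in 12 of 48 arrays, all from samples taken after phenelzine. Each of 3 consecutive cycles gave 2 neighbouring samples at or near the peak of ribosome biogenesis genes. Each cycle also gave 2 at or near the peak of gluconeogenesis and glyoxylate cycle genes, with the midpoints of these pairs 12 min apart. The 6 ribosome biogenesis samples were phenelzine replicates 7, 8, 19, 20, 32 and 33, and the 6 gluconeogenic samples were replicates 10, 11, 22, 23, 35 and 36. They were chosen from the measured levels of those same genes, so the levels of these genes are given as a description with no test. Both phases come from 1 continuous culture of Saccharomyces cerevisiae, strain IFO0233, fed with medium and carrying no labelled mutation, and every sample was a separate draw from that culture. The culture was sampled every 4 min, first untreated (11 control samples, 13.83 to 14.5 h after inoculation) and then with phenelzine, a monoamine oxidase inhibitor, present (37 samples, the 12 used here from 14.97 to 16.9 h). The dose of phenelzine is not given in the sources used here. RNA was hybridised to Affymetrix Yeast 2.0 arrays, 1 array per sample. There was no second culture, and the 3 cycles served as replicates. The p-values therefore set a change against its spread from cycle to cycle within 1 culture, a spread that limma shares in part across probe sets. The precision is limited by the number of arrays. All values below are quantile-normalized log2 signals, and a difference is the gluconeogenic minus the ribosome biogenesis phase. Levels describe 1 probe set at a time, and levels of different genes were not compared.

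Dense continuous cultures of budding yeast alternate spontaneously between high and low oxygen uptake, and much of the transcriptome alternates with them. Ribosome biogenesis, the nucleolar assembly of ribosomes from rRNA and protein, is transcribed in a burst by genes that share regulation by growth signals. Gluconeogenesis builds hexose phosphates from small carbon compounds. The glyoxylate cycle feeds it with the carbon of acetate and ethanol by bypassing the decarboxylating steps of the tricarboxylic acid cycle. Both pathways are repressed by glucose, and in a culture limited for carbon their genes are switched on through the kinase Snf1 and the activators Cat8, Sip4 and Adr1. Because whole culture was sampled, a lower share of cells in a state and less RNA per cell cannot be told apart.

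PCK1, phosphoenolpyruvate carboxykinase, which commits carbon to gluconeogenesis, lay at 6.90, 7.01 and 7.41 (lowest, median and highest of 6 arrays) in the ribosome biogenesis phase and at 10.26, 10.72 and 10.96 in the gluconeogenic phase. ICL1, isocitrate lyase, the entry enzyme of the glyoxylate cycle, lay at 10.50, 10.74 and 11.48 against 13.50, 13.70 and 13.85. Both genes were low in every array of the first phase and high in every array of the second, with no overlap. UTP21, a subunit of the small subunit processome that folds and cuts the early pre-rRNA, lay at 9.36, 9.71 and 10.61 in the ribosome biogenesis phase and at 8.64, 8.99 and 9.44 in the gluconeogenic phase. Its arrays overlapped, because replicate 35, the first gluconeogenic array of cycle 3, was at 9.44 and replicate 32, the first ribosome biogenesis array of that cycle, at 9.36.

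The sampling step mattered at the edges of these phases. In the sample between the phases PCK1 was already at 9.52 in cycle 1 and 9.45 in cycle 2, but only at 8.01 in cycle 3. The sample just before the ribosome biogenesis arrays had PCK1 between 7.01 and 7.20 in the 3 cycles, and the sample just after the gluconeogenic arrays had it at 10.16, 10.38 and 10.34. UTP21 was at 8.71, 8.16 and 8.74 just before the ribosome biogenesis arrays and at 7.88, 7.98 and 7.88 just after the gluconeogenic ones. UTP21 thus went on falling past the second phase. The mean of the small subunit processome genes, each centred on its mean over all arrays, was still 0.23 and 0.17 above 0 in the gluconeogenic arrays of cycle 1 and reached -0.96 only 8 min after them. In cycle 3 the same mean was 1.03 in replicate 33 and 1.07 in replicate 34, which is not among the chosen arrays. The mean of the gluconeogenesis and glyoxylate genes was 0.59 and 0.75 in the chosen replicates 35 and 36 and 0.72 in replicate 37. Both pairs of cycle 3 thus lay somewhat early.

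**Figure D1:**
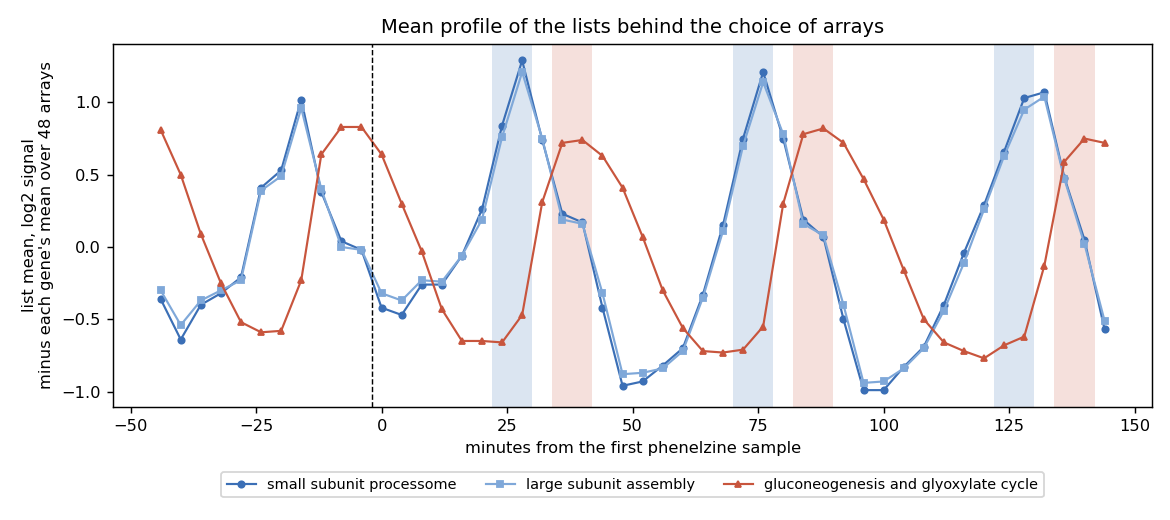
Mean log2 signal of 3 gene lists, each gene centred on its mean over 48 arrays, against minutes from the first phenelzine sample. The dashed line lies midway between the last control and the first phenelzine sample. Blue and red bands mark the ribosome biogenesis and the gluconeogenic arrays; the small subunit processome list falls from 1.29 to 0.17 within the first pair of bands while the gluconeogenesis list rises from -0.66 to 0.74.

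Some facts of the arrays touch the comparison. Array numbers in the labels skip 91. The arrays of cycle 1 lie before the missing number and those of cycle 3 after it, and in cycle 2 the ribosome biogenesis arrays lie before and the gluconeogenic arrays after it. The ratio of the 3 prime over the 5 prime signal of the spiked dap control was 1.57 to 1.87 on the log2 scale on the 6 phase arrays before that number, 2.00 to 2.63 on the 6 after it and 1.43 to 1.82 on control arrays. Across phases it was 1.62 to 2.63 for ribosome biogenesis and 1.57 to 2.52 for gluconeogenic arrays. Replicates 11, 19, 20 and 36 carry the name suffix 02. As deposited, the median log2 signal of tested probe sets ran from 9.60 to 10.29 in the first and from 9.79 to 10.52 in the second phase.

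The step moved a large share of the transcriptome, mostly by small amounts. Of 5372 probe sets tested, 2314 (43.1%) passed the threshold in limma's paired test over 3 cycles, at an adjusted p under 0.05. Of these, 180 belong to the lists that placed the arrays and are no result. In the gluconeogenic phase 1141 (21.2%) were higher and 1173 (21.8%) lower. A gene list below whose counts lie near these shares differs little from all probe sets. Past 2-fold, 77 (1.43%) were higher and 79 (1.47%) lower. With the values as deposited, without scaling between arrays, 486 passed, 290 higher and 196 lower. The 6 arrays of one phase did not overlap the 6 of the other for 1094 probe sets (20.4%), and 3628 (67.5%) had the same sign in all 3 cycles. These p-values set the size of a change against its spread from cycle to cycle, which limma moderates with the spread of other probe sets. A called gene can thus differ between cycles, as HXT11 did at -0.33, -1.86 and -1.70. Because the arrays were placed by the phase of the cycle, the p-values are no independent evidence that the phases differ. Moving both phases 4 min earlier gave 2787 calls and 4 min later 2935, and leaving out cycle 2 left 1058, so counts depend on the exact arrays. Of the genes named in the text, 40 changed sign with both phases 4 min earlier and 26 with both 4 min later. Of the 165 genes named here with a call, 48 kept it, with its direction, under all 20 other settings tried. Both counts include genes given below as a description with no test, such as MCH1 and MEP2. SIP4, REG2, DAL80, ATG1, HSP82, CLN2, FMP16, GND2 and HSP12 were among the 48.

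**Figure D2:**
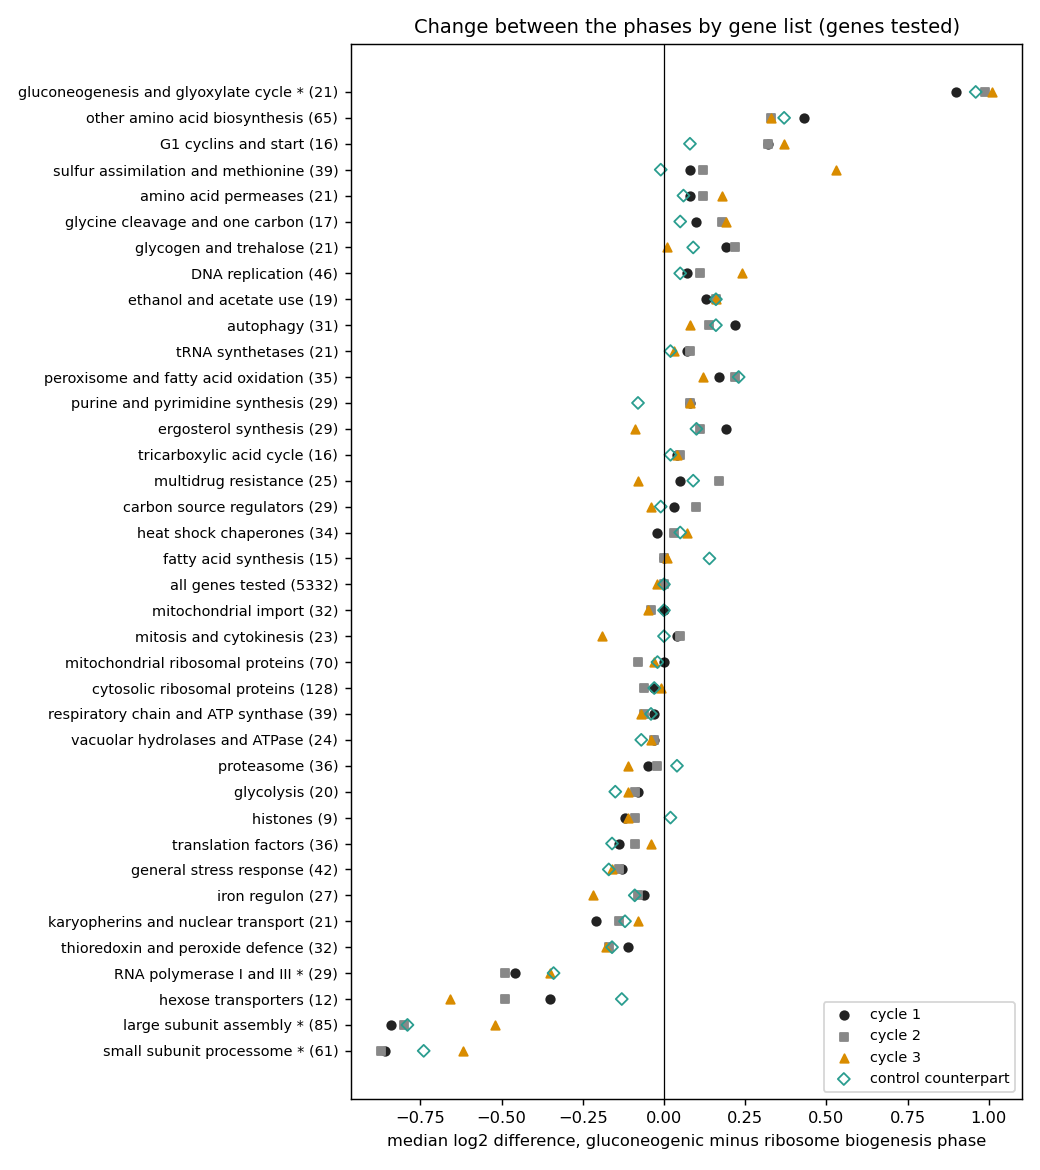
Median log2 difference of each gene list (number of genes tested in brackets) in each of the 3 cycles after phenelzine and in the control arrays 44 min earlier. Lists with an asterisk served to place the phases; gluconeogenesis lies near 0.9 to 1.01 in the 3 cycles and the small subunit processome near -0.87 to -0.62.

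Among the gluconeogenic and glyoxylate genes, which placed the arrays, 19 of 21 were higher in all 3 cycles, MDH3 was lower in all 3, and the median difference was 0.91 (0.90, 0.99 and 1.01 in the single cycles). The step was 12.3-fold for PCK1 (3.62 ± 0.17 on the log2 scale, SD, n = 3 cycles), 9.40-fold for ADY2, an acetate and ammonium transporter, and 8.73-fold for MDH2, the cytosolic malate dehydrogenase. FBP1, fructose-1,6-bisphosphatase, the last committed enzyme toward hexose phosphate, lay at 8.57, 8.70 and 8.82 before and at 10.56, 11.16 and 11.33 after the step. ICL1 differed by 2.83 ± 0.10 and SFC1, the mitochondrial carrier that exchanges succinate for fumarate, by 1.99 ± 0.02. CRC1, the mitochondrial carnitine carrier, differed by 2.38 ± 0.14. MLS1, malate synthase, the other enzyme particular to the glyoxylate cycle, differed by only 0.91 and JEN1, the lactate and pyruvate permease, by 0.48, both without overlap of the arrays. Of the 3 activators named above, the transcripts of CAT8 and ADR1 moved little, at 0.27 and 0.13 with overlapping arrays. SIP4, which did not help to place the arrays, rose by 2.31 and is described next.

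Leaving out CAT8 and ADR1, which helped to place the arrays, 6 of 27 regulators of carbon source use were higher, 5 lower and 16 did not pass, with a median of 0.01. All genes tested had a median of -0.01. SIP4, the zinc cluster activator of gluconeogenic genes that acts beside Cat8, lay at 8.71, 8.81 and 9.17 in the ribosome biogenesis phase and at 10.94, 11.18 and 11.47 in the gluconeogenic phase. No array of the first phase came near any of the second, and SIP4 was 4.96-fold higher (2.31 ± 0.12, SD, n = 3, limma's adjusted p = 1e-06). REG2, a targeting subunit of the phosphatase Glc7 that counters Snf1, lay at 7.94, 8.25 and 8.49 against 9.96, 10.50 and 10.76 and was 4.78-fold higher (2.26 ± 0.11, adjusted p = 1.1e-06). SIP2, a beta subunit of the Snf1 complex, was higher by 0.76 (adjusted p = 0.00037). MIG2, a glucose-dependent repressor, was lower by 1.29 (adjusted p = 0.012) with overlapping arrays and 1 gluconeogenic array under the background limit of 3.01, and in the control arrays it went the other way, by 1.55.

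Genes of ethanol and acetate use were mostly higher, 11 of 19 with 3 lower and a median of 0.15 (6 higher and 1 lower with columns centred on their median). ADH2, the alcohol dehydrogenase that oxidises ethanol, was higher by 0.82 ± 0.18 (adjusted p = 0.00037), ADH5 by 0.88, ALD5, a mitochondrial aldehyde dehydrogenase, by 0.60, and MAE1, the mitochondrial malic enzyme, by 0.59. With both phases 4 min later ALD5 was at -0.24 and MAE1 at -0.26. In the tricarboxylic acid cycle 5 of 16 genes were higher and 0 lower (1 higher with centred columns). CIT3, a mitochondrial citrate and methylcitrate synthase, was 2.86-fold higher (1.52 ± 0.14, adjusted p = 1.4e-05), while both subunits of NAD-dependent isocitrate dehydrogenase were higher by less, IDH1 by 0.36 and IDH2 by 0.29, and LSC2, a subunit of succinyl-CoA ligase, by 0.22.

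Of 20 glycolysis genes 9 were lower, 1 was higher and 10 did not pass, with a median of -0.07. The direction rested on the scaling between arrays, since with columns centred on their median the list had 0 lower genes and a median of 0.05. HXK1, a hexokinase, fell by 0.43 (adjusted p = 5.6e-05), PGI1, glucose-6-phosphate isomerase, by 0.24 and PFK1, a phosphofructokinase subunit, by 0.24, each without overlap of the arrays. The gene that rose was PYK2, a pyruvate kinase that is insensitive to fructose-1,6-bisphosphate, by 0.93 ± 0.07 (adjusted p = 5.8e-05). Hexose transporter genes had a median of -0.44, with 6 of 12 lower and 1 higher. HXT2, a high-affinity glucose transporter, lay at 8.15, 8.34 and 8.59 in the ribosome biogenesis phase and at 6.89, 7.15 and 7.50 in the gluconeogenic phase. The phases did not overlap, and HXT2 was 2.29-fold lower (-1.20 ± 0.22, adjusted p = 0.00013). HXT4, another glucose transporter, was lower by 0.95 (adjusted p = 0.0015). HXT9 at -1.86 and HXT11 at -1.30, which are near-identical genes whose probe sets may share RNA, had low signals, and 5 of the 6 gluconeogenic arrays of HXT9 were under the background limit.

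Of 21 genes of glycogen and trehalose 6 were higher, 2 lower and 13 did not pass. GPH1, glycogen phosphorylase, was 2.39-fold lower in the gluconeogenic phase (-1.26 ± 0.12, adjusted p = 1.1e-05) and GDB1, the glycogen debranching enzyme, was lower by 0.45. GSY1, a glycogen synthase, was higher by 0.51 and TPS1, trehalose-6-phosphate synthase, by 0.46, but both turned with the phases 4 min earlier, to -0.14 and -0.42, and GDB1 was at 0.07 with them 4 min later. Leaving out MDH3, which helped to place the arrays, 15 of 34 peroxisome and fatty acid oxidation genes were higher and 5 lower. With the values as deposited the list, MDH3 included, had 2 higher and 0 lower. Lower were POT1, the 3-ketoacyl-CoA thiolase, by 0.87, SPS19, a dienoyl-CoA reductase, by 0.86, and FOX2, the multifunctional enzyme of beta-oxidation, by 0.79, though FOX2 was at 0.43 with both phases 4 min later. ANT1, the peroxisomal adenine nucleotide carrier, was higher by 0.73 ± 0.04 (adjusted p = 0.00012). In the respiratory chain 2 of 39 genes were higher and 6 lower, or 4 higher and 0 lower with centred columns. CYC7, a cytochrome c isoform, rose by 0.87 (-0.69 with both phases 4 min earlier) and DLD1, D-lactate dehydrogenase, by 0.48, while COX6 at -0.13 and GUT2 at -0.14 were above 0 with the values as deposited.

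**Figure D3:**
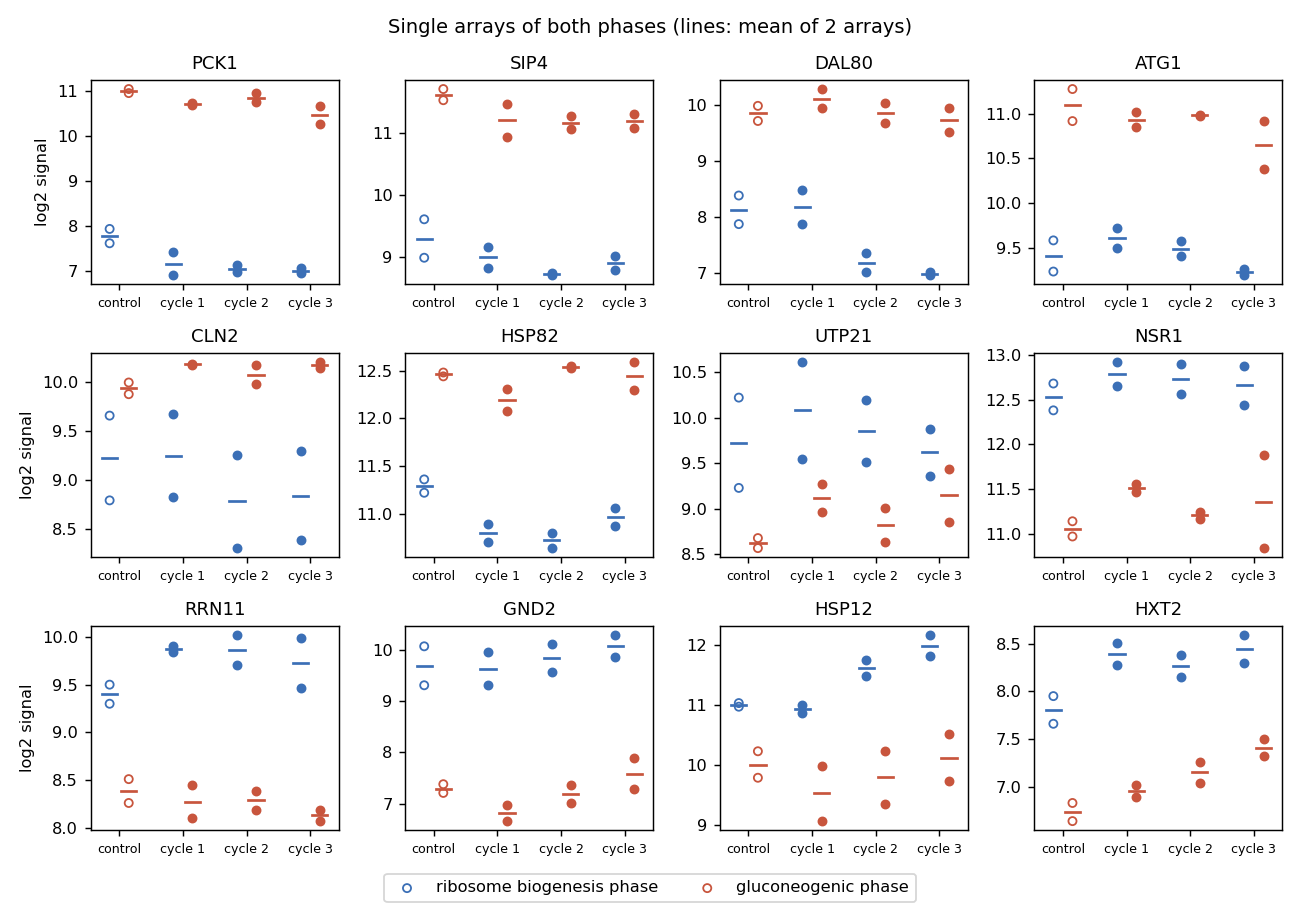
Log2 signal of 12 genes in single arrays of the ribosome biogenesis (blue) and gluconeogenic (red) phase in the control (open circles) and in 3 cycles after phenelzine (filled circles), with lines at the mean of 2 arrays. PCK1, SIP4, DAL80, ATG1 and HSP82 are higher in every red array after phenelzine; NSR1, RRN11, GND2, HSP12 and HXT2 are lower; UTP21 overlaps.

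In amino acid biosynthesis 50 of 65 genes passed upward, 3 downward and 12 did not pass, with a median of 0.33, and with columns centred on their median 30 passed upward and 1 downward. ORT1, the mitochondrial ornithine carrier of arginine synthesis, lay at 8.79, 9.14 and 9.60 against 10.45, 10.63 and 10.80. Its phases did not overlap, and the gene was 2.80-fold higher (1.49 ± 0.12, adjusted p = 1.4e-05). LYS1, the last enzyme of lysine synthesis, was 2.53-fold higher, LYS9, the step before it, 2.22-fold, and SER3, a phosphoglycerate dehydrogenase of serine synthesis, 2.33-fold. The arrays of SER3 overlapped, and its difference was 0.83 in cycle 1, 1.89 in cycle 3 and -0.73 over the cycles with both phases 4 min later.

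Of 39 sulfur assimilation and methionine genes 19 were higher and 3 lower, with a median of 0.21 and a control median of -0.01. The list mean, each gene centred on its mean over all arrays, rose steeply within the ribosome biogenesis pair. In cycle 1 it was 0.18 and 1.35 there, and 1.04 and 0.67 in the gluconeogenic pair. In cycle 2 it was 0.22 and 1.34, then 1.16 and 0.78, and in cycle 3 0.08 and 1.02, then 1.52 and 1.06. The direction of the list thus rested on the first array of the ribosome biogenesis pair in cycles 1 and 2. OPT1, a transporter of glutathione and oligopeptides, lay at 7.23, 8.67 and 11.27 in the ribosome biogenesis phase and at 10.67, 11.62 and 12.46 in the gluconeogenic phase. Its arrays overlapped and its difference ran from 1.61 in cycle 1 to 3.64 in cycle 3 (2.44 ± 1.07, adjusted p = 0.00081). MHT1, which makes methionine from S-methylmethionine and homocysteine, was higher by 2.07 and JLP1, a sulfonate dioxygenase, by 1.43. MUP1, the high-affinity methionine permease, was lower by 1.32 (adjusted p = 0.0014), again with overlap. These steep genes depend on the exact minutes chosen, since with both phases 4 min later the difference was -1.0 for OPT1 and -0.42 for MHT1, and with both 4 min earlier MUP1 was at 1.62. Glycine cleavage and one-carbon genes were higher in 7 of 17 cases (4 with centred columns) and lower in 1, all of them by little, with GCV1 at 0.35, GCV2 at 0.34, SHM2 at 0.33 and FOL2 at 0.27.

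DAL80, the GATA-type repressor of nitrogen catabolite genes, lay at 6.96, 7.18 and 8.48 in the ribosome biogenesis phase and at 9.51, 9.94 and 10.28 in the gluconeogenic phase. The phases did not overlap, and DAL80 was 5.46-fold higher (2.45 ± 0.45, adjusted p = 2.7e-05). Among 21 amino acid permease genes 10 were higher and 6 lower. PUT4, the proline permease, was higher by 1.37 ± 0.26 (adjusted p = 4.6e-05), ALP1, an arginine permease, by 1.29, and UGA4, the GABA permease, by 1.22, against MUP1 in the other direction. With both phases 4 min earlier PUT4 was at -0.12 and UGA4 at -0.47. SEO1, a putative permease of the allantoate family, was 4.85-fold higher (-0.31 on the log2 scale with both phases 4 min later) and SRY1, a 3-hydroxyaspartate dehydratase, 3.99-fold. In purine and pyrimidine synthesis 11 of 29 genes were higher and 6 lower (4 each way with centred columns), with ADE8, a transformylase of purine synthesis, at 0.39 and URA7, CTP synthase, at -0.73, IMD4, an IMP dehydrogenase, at -0.44 and URA10, a minor orotate phosphoribosyltransferase, at -0.61. With both phases 4 min earlier URA7 was at 0.38 and IMD4 at 0.95.

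Stress genes were called lower more often than higher, and chaperone genes higher more often than lower. The counts in the opposite directions were no larger a share than among all probe sets, 21.2% higher and 21.8% lower. Of 42 general stress response genes 19 were lower and 8 higher, with a median of -0.10. With the values as deposited 9 were lower and 4 higher, with a median of -0.01. The centred list mean fell mostly within the ribosome biogenesis pair of cycles 1 and 2. In cycle 1 it was -0.15 and -0.59 there, and -0.61 and -0.63 in the gluconeogenic pair. In cycle 2 it was 0 and -0.49, then -0.46 and -0.52, and in cycle 3 0.10 and -0.27, then -0.48 and -0.37. HSP12, a membrane-stabilising stress protein, lay at 10.86, 11.61 and 12.16 in the ribosome biogenesis phase and at 9.07, 9.87 and 10.51 in the gluconeogenic phase. Its phases did not overlap, and it was 3.22-fold lower (-1.69 ± 0.26, adjusted p = 2.1e-05). GND2, an isoform of 6-phosphogluconate dehydrogenase, lay at 9.31, 9.91 and 10.29 against 6.66, 7.15 and 7.89, 6.28-fold lower (-2.65 ± 0.17, adjusted p = 1.2e-06), and DDR2, a small stress protein, was 3.62-fold lower. HSP42, a small heat shock protein that gathers misfolded proteins, was instead 3.31-fold higher (1.73 ± 0.09, adjusted p = 4.2e-06). Of 34 chaperone genes 14 were higher and 6 lower, or 9 higher and 0 lower with centred columns. HSP82, the inducible Hsp90, lay at 10.64, 10.83 and 11.06 against 12.08, 12.42 and 12.59, and the phases did not overlap. It was 2.96-fold higher (1.57 ± 0.22, adjusted p = 1.6e-05). SSA2, an Hsp70, was higher by 0.77, SIS1, its J-domain partner, by 0.76, and AHA1, an activator of Hsp90, by 0.72.

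In autophagy 11 of 31 genes were higher and 6 lower, with a median of 0.13, or 2 higher and 0 lower with the values as deposited. ATG1, the kinase that starts autophagy, lay at 9.19, 9.45 and 9.72 in the ribosome biogenesis phase and at 10.38, 10.95 and 11.02 in the gluconeogenic phase, a 2.67-fold difference with no overlap (1.42 ± 0.09, adjusted p = 1.2e-05). ATG39, a receptor for autophagy of the nuclear envelope, was higher by 0.78 and ATG29, a scaffold subunit, by 0.73, while ATG34, a receptor for alpha-mannosidase, was lower by 0.66. Among 24 vacuolar genes 3 were higher and 5 lower, or 2 and 1 with centred columns. Neither count was a larger share than among all probe sets, 21.2% higher and 21.8% lower. PHO8, the vacuolar alkaline phosphatase, rose by 1.15 ± 0.14 and DAP2, a dipeptidyl aminopeptidase, by 0.36, while AMS1, alpha-mannosidase, fell by 0.80 and PRC1, carboxypeptidase Y, by 0.35. Of 36 proteasome genes 1 was higher, RPN4, the activator of the others, by 0.30, and 6 were lower, or 2 each way with centred columns. UMP1, a proteasome assembly chaperone, was lower by 0.41, BLM10 by 0.27 and PRE9 by 0.27.

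Genes of the start of the cell cycle were called higher in the gluconeogenic phase in 8 of 16 cases, with 1 lower and a median of 0.29. With the values as deposited 2 were higher and 0 lower. CLN2, a G1 cyclin, lay at 8.30, 9.04 and 9.68 in the ribosome biogenesis phase and at 9.98, 10.18 and 10.21 in the gluconeogenic phase. The phases did not overlap, and CLN2 was 2.28-fold higher (1.19 ± 0.22, adjusted p = 8.1e-05). The Pho85 cyclins PCL2 and PCL1 were higher by 0.84 and 0.77 and SIC1, an inhibitor of the S phase kinase, by 0.54. Of 46 DNA replication genes 19 were higher and 5 lower, or 2 higher and 1 lower with the values as deposited. PRI2, a primase subunit, was at 0.53 and POL2, the DNA polymerase epsilon catalytic subunit, at 0.46. The licensing genes CDC6 and MCM5 went the other way, at -0.73 and -0.48. Of 23 mitosis and cytokinesis genes (3 passed each way with centred columns) 1 was higher and 5 were lower. Neither count was a larger share than among all probe sets, 21.2% higher and 21.8% lower. DBF2, a kinase of mitotic exit, rose by 0.41. MYO1, the contractile ring myosin, fell by 0.47, ALK1 by 0.29 and ESP1, separase, by 0.25. Of 9 histone genes 4 were lower, HTZ1 by 0.25, HTB2 by 0.24, HHO1 by 0.16 and HHT1 by 0.11, but 0 with centred columns. RNR3, a DNA damage inducible subunit of ribonucleotide reductase, was at -0.15 (adjusted p = 0.17).

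Ribosome biogenesis genes, which placed the other set of arrays, were lower in the gluconeogenic phase in all 3 cycles for 58 of 61 small subunit processome genes (median -0.82), 83 of 85 large subunit assembly genes (median -0.74) and 24 of 29 genes of RNA polymerases I and III (median -0.43). The drop was smaller in cycle 3, with medians of -0.62, -0.52 and -0.35, than in cycle 1, with -0.86, -0.84 and -0.46. The peak of cycle 3 lay 1 sample past the chosen arrays. NSR1, nucleolin, lay at 12.44, 12.77 and 12.92 in the ribosome biogenesis phase and at 10.84, 11.36 and 11.88 in the gluconeogenic phase. RRN11, a subunit of the core factor that starts rRNA transcription by RNA polymerase I, lay at 9.47, 9.87 and 10.02 against 8.07, 8.19 and 8.45. Neither gene overlapped between the phases, and RRN11 differed by nearly the same amount in every cycle (-1.59 ± 0.01, SD, n = 3).

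The members did not fall alike. In the processome DHR2, an RNA helicase, differed by -1.49, ESF1 by -1.41, UTP25 by -1.40 and UTP13 by -1.26, against -0.96 for PWP2, -0.82 for UTP21 and -0.23 for NOP1, fibrillarin, which methylates rRNA. In the large subunit pathway SSF1 differed by -1.38, RSA4 by -1.34 and DRS1, another helicase, by -1.30, but NOP7, needed for processing of the large subunit rRNA, by -0.69. RNA polymerase I subunits RPA49, RPA43 and RPA12 differed by -1.06, -1.03 and -0.92. The size also depended on the minute: with both phases taken 4 min earlier, UTP21 was 0.66 higher in the second phase.

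Most ribosomal protein genes did not pass the threshold. Of 128 cytosolic ribosomal protein genes 24 were lower and 2 higher, with a median of -0.03, but with columns centred on their median 2 were lower, 1 was higher and the list median was 0.11. RPL22B was lower by 0.71 (adjusted p = 0.00012), RPS9A by 0.65 and RPS14B by 0.44, and RPL15B was higher by 0.38. Each of these has a near-identical copy, so probe sets may share part of their RNA. Mitochondrial ribosomal protein genes had 14 of 70 lower and 4 higher (6 and 4 with centred columns, 0 each way as deposited). MRPL50 was at -0.44, RSM22 at -0.43, MRPL37 at -0.39 and RSM24 at 0.31. In the main fit no count of either ribosomal protein list was a larger share than among all probe sets (21.2% higher, 21.8% lower). Translation factor genes were lower in 13 of 36 cases (6 with centred columns) and higher in 0, with GCD1, a subunit of the exchange factor eIF2B, at -0.51, NIP1, a subunit of eIF3, at -0.41, SUI1, eIF1, at -0.37 and RLI1, a recycling factor, at -0.35. Of 21 nuclear transport genes 8 were lower and 1 higher. GSP2, a Ran GTPase, fell by 0.75, KAP104 by 0.65, NMD5 by 0.56 and LOS1, the tRNA exporter, by 0.46. Among 21 tRNA synthetase genes 6 were higher and 4 lower, and 0 passed with centred columns, with GLN4 at -0.29, FRS1 at -0.21, VAS1 at 0.22 and DED81 at 0.19.

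Iron regulon and redox genes passed downward more often than upward in the main fit. Their upward counts were no larger a share than among all probe sets (21.2%). Of 27 iron regulon genes 12 were lower and 5 higher, or 2 each way with the values as deposited. The ferric reductases FRE1 and FRE3 fell by 0.93 and 0.91 (adjusted p = 9.1e-05 and 0.00044), while COT1, a vacuolar zinc and cobalt transporter, rose by 0.80 and FIT1, a cell wall mannoprotein, by 0.67. CTR3, a copper transporter, was 3.95-fold lower. Of 32 thioredoxin and peroxide defence genes 15 were lower and 4 higher, with GRE2, a methylglyoxal reductase, lower by 1.26, OYE3, an NADPH oxidoreductase, by 0.66 and TRX3, mitochondrial thioredoxin, by 0.64, and SRX1, sulfiredoxin, higher by 0.77. Of 32 mitochondrial import genes 6 passed each way, or 8 upward and 1 downward with centred columns, with MAS2 and TIM22 at 0.39, SAM50 at -0.31 and MIA40 at -0.28. Of 25 multidrug resistance genes 4 were higher and 5 lower. In the main fit no import or multidrug count was a larger share than among all probe sets (21.2% higher, 21.8% lower). ATR1, an exporter of the major facilitator family, was higher by 0.92, and RSB1 was lower by 0.55, YOR1 by 0.46, PDR15 by 0.35 and PDR5, the main drug efflux pump, by 0.28. Lipid genes changed little, with no larger a share called either way than among all probe sets. ERG8 and ECM22 were higher by 0.45 and 0.33 and ERG28 lower by 0.25 among 29 ergosterol genes, of which 6 were higher and 1 lower and ARE1 was at 0.24. Of 15 fatty acid synthesis genes 3 were higher, ELO1 by 0.44, PHS1 by 0.37 and FAA1 by 0.24, and ELO3 was lower by 0.23. ACT1, actin, was at -0.02 (adjusted p = 0.76).

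The largest changes outside the lists that placed the arrays included several genes of little known function. FMP16, a mitochondrial protein induced by stress, lay at 10.23, 10.89 and 11.55 in the ribosome biogenesis phase and at 7.74, 8.17 and 8.49 in the gluconeogenic phase. The phases did not overlap, and FMP16 was 6.69-fold lower (-2.74 ± 0.11, adjusted p = 5.6e-07). HBT1, a protein of cell polarity in mating, was 4.89-fold lower, VBA3, a vacuolar permease of basic amino acids, 3.89-fold, TKL2, a minor transketolase, 3.78-fold, GFD2 3.40-fold and GPP2, a glycerol-1-phosphatase, 3.26-fold. YKL068W-A, a short reading frame, was 6.32-fold lower with overlapping arrays, and SHH3, a homolog of a succinate dehydrogenase subunit, 3.59-fold. YGR067C, a zinc finger protein resembling Adr1, was 4.65-fold higher and GTO1, an omega-class glutathione transferase, 3.42-fold. SRL4, a gene of unknown biochemical role, and YLR012C, an uncharacterised reading frame, headed the list at 3.77 and 2.69, but 4 of 6 and 5 of 6 of their ribosome biogenesis arrays were under the background limit, so these sizes are imprecise. SRL4 lay at 0.02, 1.46 and 4.19 against 3.26, 5.83 and 6.18, and the arrays overlapped.

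**Figure D4:**
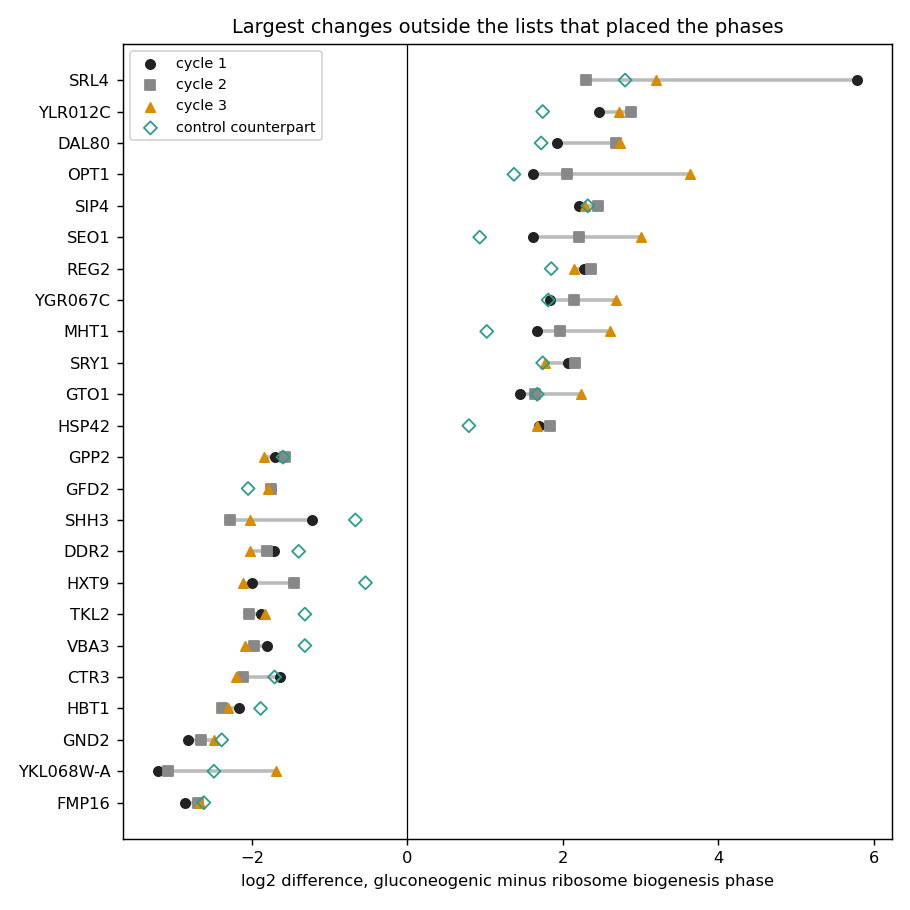
Log2 difference (gluconeogenic minus ribosome biogenesis phase) of the 12 largest changes in each direction outside the lists that placed the phases, in each cycle and in the control arrays; grey bars span the 3 cycles. FMP16, SIP4 and REG2 have nearly equal values in the 3 cycles, while SRL4 runs from 2.30 to 5.79.

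The same step could be read once before phenelzine, in control replicates 7 and 8 against 10 and 11, which lie 44 min before the arrays of cycle 1 and played no part in the choice. This single step has no replicate and was not tested. PCK1 differed by 3.23, ICL1 by 2.57 and UTP21 by -1.10 there. In these arrays 1.68% of the probe sets were over 2-fold higher and 1.95% over 2-fold lower. Of 2134 probe sets that passed after phenelzine, outside the lists that placed the arrays, 1948 (91.3%) had the same sign in the control step, against 1956 of 3042 (64.3%) of those that did not pass. SIP4 at 2.32, FMP16 at -2.62 and ATG1 at 1.69 had control values close to those after phenelzine.

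Some members stood further apart after phenelzine than in the control step, and others less far. HSP42 was at 0.79 in the control and at 1.67 to 1.83 in the 3 cycles, and SEO1 at 0.93 against 1.62 to 3.01. Both were named for a large change after phenelzine, so the choice itself favours a smaller control value. In the other direction OYE3 was at -1.24 in the control and at -0.70, -0.59 and -0.69 in the cycles. The fatty acid synthesis list had a control median of 0.14 against 0, 0 and 0.01. By list, sulfur assimilation had a control median of -0.01 against 0.08, 0.12 and 0.53 in the cycles, G1 cyclins 0.08 against 0.32, 0.32 and 0.37, and hexose transporters -0.13 against -0.35, -0.49 and -0.66. These differences from the control were not tested, and phenelzine, time in culture and the exact phase of the sampled minutes cannot be told apart.

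**Figure D5:**
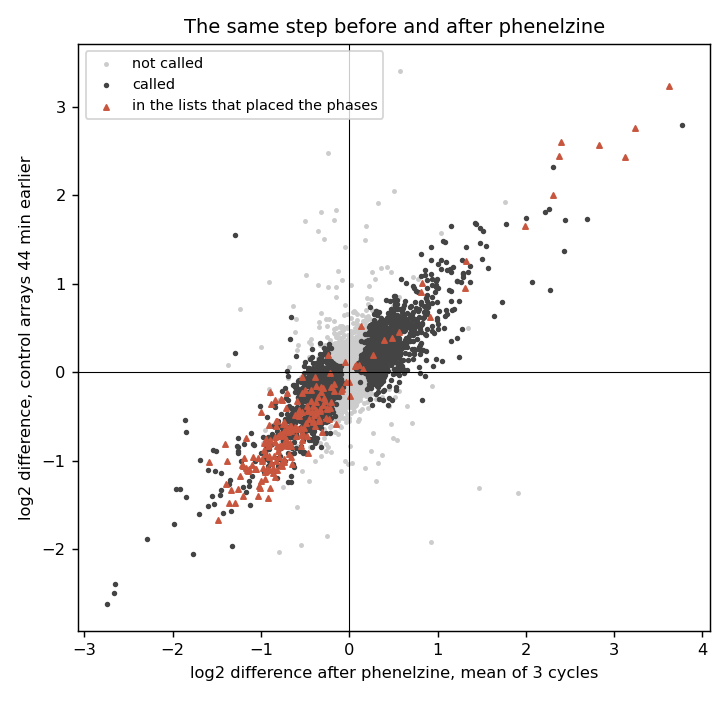
Log2 difference of each tested probe set between the phases, mean of 3 cycles after phenelzine (horizontal) against the control arrays 44 min earlier (vertical). Of the called probe sets outside the placing lists (dark), 91.3% lie in the quadrants of equal sign.

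The overall size of the step was similar in the 3 cycles. The SD of the difference over tested probe sets was 0.44, 0.47 and 0.44 in cycles 1, 2 and 3 and 0.41 in the control step. An interaction test of the cycle 3 change against the cycle 1 change, with neighbouring arrays standing in for replicates, called 0 of 5372 probe sets (limma with Benjamini-Hochberg adjustment), and 160 had an unadjusted p under 0.05. OPT1, with 1.61 in cycle 1 and 3.64 in cycle 3, did not pass. A call here would have needed a large difference, and the missing calls do not show that the cycles were alike.

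Over all 37 phenelzine arrays the profiles most like PCK1 by Pearson's r were those of SFC1 (0.982), ICL1 (0.974), MCH1, a protein resembling monocarboxylate permeases, ADY2 and CRC1 (each 0.961). MCH1, which is in no list, had a difference of 1.11 ± 0.16, given with no test because it was picked for its likeness to a gene that placed the arrays. Those most like UTP21 were KRE33 (0.979), an rRNA acetyltransferase, ERB1 and BMS1 (each 0.976), both ribosome assembly factors, PSE1 (0.976), a nuclear import receptor that carries ribosomal proteins, and ECM1 (0.974), a pre-ribosome export factor. Their differences were -0.64, -0.92, -0.35, -0.36 and -0.63. The arrays behind these values are a time course of 1 culture, so the coefficients describe shared timing and carry no test.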

How the data were processed

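RNA of 48 samples was hybridised to 48 arrays. The authors deposited linear intensities of 10928 probe sets. The submitters' processing notes name GCOS. Which version, algorithm and target value it ran with was not given in the sources used here, and the scale and centring of the columns are unknown. Genes were named through the platform annotation. Here log2 values (signals under 1 set to 1) were quantile normalized over 48 arrays, which removes differences in overall level between arrays. Of 5498 budding yeast probe sets, 5372 (5332 genes) were tested, those whose mean passed log2 3.01, the 90th percentile of fission yeast probes, and 126 were left out.

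The 2 arrays of each phase and cycle were averaged, and the 6 means were fitted in limma 3.58.1 (R 4.3.3) with cycle as a block and a mean-variance trend, with Benjamini-Hochberg adjustment over all tested probe sets and a threshold of 0.05. The cycle 3 against cycle 1 test used the 12 arrays. No test is given for genes of the small subunit processome, large subunit assembly, RNA polymerase I and III, and gluconeogenesis lists, whose probe sets stay in the fit and in the count of all calls. The arrays, the gene lists and the tests were chosen with earlier results of these data known. Named genes were the 12 largest changes each way past the threshold with 1 sign in all cycles, up to 4 per list, 18 fixed genes and the 5 profiles most like PCK1 and UTP21. The fits were tested on simulated data. Promoter motifs were not analysed here. Plots used matplotlib 3.10.9 and Python 3.11.15.

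Alternatives were other scalings, a pseudocount of 50, filters, variance models, blocks, arrays moved 4 min, cycles left out, the side of the missing array number and the name suffix. Ribosome biogenesis arrays of cycle 3 moved 4 min later were added after seeing the data.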

Additional observations from a re-analysis of the deposited data

Results flagged for a closer look

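In 4 of 40 groups of 6 arrays examined for the genes whose array values are given (20 genes in 2 phases), 1 array stood far below the other 5, where chance flags about 1 in 20 groups of independent samples. These groups share arrays and hold neighbouring samples, so that rate is only a guide. Replicate 35, the first gluconeogenic array of cycle 3, was the lowest for 3 genes. There FBP1 was at 10.56 with the next array at 11.13, ATG1 at 10.38 with the next at 10.85, and SRL4 at 3.26 with the next at 5.79. For CLN2 the gluconeogenic array of replicate 22 was at 9.98 and the next at 10.15. Outside the measurement of the genes, the spiked dap control had a 3 prime to 5 prime signal ratio of up to 2.63 on the log2 scale in the phase arrays after the missing array number, above the highest control array at 1.82. Its part in the differences between phases was not tested beyond the fits that hold the side of that number as a term.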

How the results depend on the processing

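The count of probe sets past the threshold stayed within 1.5 times of 2314 for most settings. It was 486 (290 higher, 196 lower) with the values as deposited, 1520 (744 higher, 776 lower) with the side of the missing array number as a term, and 588 (292 higher, 296 lower) without arrays of name suffix 02, a fit on cycles 1 and 3 and 6 of the 12 arrays. Leaving out 1 cycle gave 1058 to 2640 calls, 508 to 1353 higher and 550 to 1287 lower, the fewest without cycle 2. The 12 single arrays gave 2273 calls with cycles as a replicate block and 2176 with no replicate block. No numbers in the labels pair samples. The cycle 3 against cycle 1 test called 0 probe sets under all 11 alternatives run. The share of calls with the same sign in the control step, 91.3%, was 82.6% with a lag of 48 min and 85.8% with the values as deposited. The cause of these shifts was not tested.

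Some of the 165 named genes with a call lost it but kept their sign. These were 73 with the values as deposited, 73 without suffix 02, 40 without cycle 2, 32 with the side of the missing number and 30 with centred columns. Not in these counts are genes that lost the call and changed sign, COX6, GUT2 and HHT1 as deposited and COX6 and HHT1 with centred columns. Low signals near background limit the precision of SRL4, YLR012C, HXT9 and MIG2. Log2 differences that changed sign are given next by setting. With both phases 4 min earlier, where 1296 of the 2314 calls were shared and 193 were called the opposite way, they were ADR1 at -0.12, ATG29 at -0.03, BMS1 at 0.64, CDC6 at 0.11, CYC7 at -0.69, DHR2 at 0.30, ECM1 at 0.43, ELO3 at 0.18, ERB1 at 0.53, FAA1 at -0.06, FRS1 at 0.09, GCD1 at 0.09, GLN4 at 0.25, GSP1 at 0.06, GSY1 at -0.14, HXK2 at 0.32, IMD4 at 0.95, KAP104 at 0.11, KRE33 at 0.64, LSC2 at -0.09, MCM5 at 0.08, MUP1 at 1.62, NIP1 at 0.09, NOP1 at 0.31, NOP7 at 0.53, PSE1 at 0.13, PUT2 at -0.29, PUT4 at -0.12, PWP2 at 0.07, RLI1 at 0.20, RPA43 at 0.02, RPA49 at 0.23, RPL22A at 0.11, RPS14A at 0.04, RSM22 at 0.12, TPS1 at -0.42, UGA4 at -0.47, URA7 at 0.38, UTP21 at 0.66 and YKL068W-A at 1.08. With both phases 4 min later, where 1597 calls were shared and 109 turned, they were ADE8 at -0.08, ALD5 at -0.24, ATG34 at 0.09, CAR2 at 0.35, COX6 at 0.02, ERG28 at 0.39, FOX2 at 0.43, GDB1 at 0.07, GUT2 at 0.21, HHT1 at 0.15, HTB2 at 0.10, HXT11 at 0.10, HXT9 at 0.28, MAE1 at -0.26, MHT1 at -0.42, MIA40 at 0.08, OPT1 at -1.0, PDR15 at 0.50, PRE9 at 0.07, RPS9B at -0.30, RSB1 at 0.44, SAM50 at 0.12, SEO1 at -0.31, SER3 at -0.73, SHH3 at 0.11 and SHM2 at -0.04. With only the first array of each pair they were ADR1 at -0.03, BMS1 at 0.18, HXK2 at 0.18, IMD4 at 0.28, MUP1 at 0.23, NOP1 at 0.07, PUT2 at -0.07, RPL22A at 0.01 and RPS14A at 0.03, and with only the second CAR2 at 0.11, ERG28 at 0.08, GUT2 at 0.06, PDR15 at 0.08 and RPS9B at -0.17. With the values as deposited they were ACT1 at 0.17, CDC19 at 0.16, COX6 at 0.04, GSP1 at 0.11, GUT2 at 0.03, HHT1 at 0.07, HXK2 at 0.12, RPL22A at 0.08 and RPS14A at 0.15, and with centred columns ACT1 at 0.14, CDC19 at 0.13, COX6 at 0.01, GSP1 at 0.08, HHT1 at 0.04, HXK2 at 0.08, RPL22A at 0.05 and RPS14A at 0.12. Without suffix 02 they were ADR1 at -0.09, HXK2 at 0.05, RNR3 at 0.05 and RPS14A at 0.05. With the side of the missing number it was HXK2 at 0.01, and with the ribosome biogenesis arrays of cycle 3 moved RPS9B at -0.04. Leaving out single cycles gave HXK2 at 0.03 without cycle 1, HXK2 at 0.01 without cycle 2, ACT1 at 0.03, RPS14A at 0.01 and RPS9B at -0.02 without cycle 3.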

Other observations

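Genes of nitrogen catabolite control were gathered into a list after the values of DAL80 and the permeases had been seen, so its count is a description with no test. Of 32 tested members 23 were past the threshold upward and 5 downward, with a median of 0.59 and a control median of 0.22. MEP2, the ammonium transporter that also acts as a sensor, lay at 10.70, 11.60 and 12.87 (lowest, median and highest of 6 arrays) in the ribosome biogenesis phase and at 13.21, 13.33 and 13.35 in the gluconeogenic phase. Its difference was 0.82, 1.76 and 2.34 in the 3 cycles and 0.64 in the control. The allantoin pathway genes DAL1, DAL2, DAL3, DAL4 and DAL7 were at 0.80, 1.27, 0.88, 1.25 and 1.29, the ureidosuccinate and allantoate permease DAL5 at 1.10 and the urea transporter DUR3 at 1.04. GAP1, the general amino acid permease, was at 0.59. UGA1, GABA transaminase, at -0.64 and GLN1, glutamine synthetase, at -0.31 went the other way. CAR2 at -0.14 and PUT2 at 0.12 did not pass. The step of DAL4 was 0.58, 1.34 and 1.81 in the cycles against 0.18 in the control, and that of DUR3 0.46, 1.08 and 1.59 against 0.13, differences that were not tested.

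Partner copies of genes that changed were gathered after the values were seen. Of 17 partners 2 were past the threshold upward and 3 downward, with differences from -0.53 to 1.64, and 12 did not pass, where 43.1% of all probe sets passed. The pyruvate kinase CDC19 was at -0.02 and PYK2 at 0.93, the citrate synthase CIT1 at 0.03 and CIT3 at 1.52, and the cytochrome c gene CYC1 at 0.00 and CYC7 at 0.87. The transketolase TKL1 was at 0.00 and TKL2 at -1.92, the hexokinase HXK2 at -0.01 and HXK1 at -0.43, and the Ran gene GSP1 at -0.07 and GSP2 at -0.75. Both copies passed downward for the 6-phosphogluconate dehydrogenases, GND1 at -0.22 and GND2 at -2.65, and both upward for Hsp90, HSC82 at 0.14 and HSP82 at 1.57. The partner copies of GPP2 (-1.70) and URA10 (-0.61) also passed downward, at -0.53 and -0.15. Among ribosomal proteins RPL22A was at -0.09, RPS9B at 0.01 and RPS14A at -0.02, where their partners fell. The quiet copies had high signals, with medians of 13.60 and 13.67 in the gluconeogenic phase for CDC19 and CIT1. Whether the array signal is compressed there was not tested.

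The single array between the phases was set against the mean of 2 arrays in each phase. For 391 of 5332 genes (7.33%) it lay above both phases in all 3 cycles and for 544 (10.2%) below both. Noise alone also puts a single array outside 2 means, and the share to expect from it was not worked out. By mean depth the group below both began with SPR3, uneven between cycles at -0.06, -3.38 and -1.90 from the lower phase. By mean height the group above both began with MET32, MF(ALPHA)2, MET1, STR3 and SPR2. MET32, an activator of sulfur genes, lay 1.04, 1.17 and 1.69 above the higher of the phases, MF(ALPHA)2, an alpha-factor precursor, 2.65, 0.44 and 0.42, MET1, an enzyme of siroheme synthesis, 1.36, 1.30 and 0.82, and STR3, cystathionine beta-lyase, 1.22, 1.12 and 0.91.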
